A study of Mus musculus with 39 samples.

Results

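The genes described here encode the proteins of the mitochondrial ribosome. They were taken from the gene symbols of the deposited count tables as every symbol made of Mrpl or Mrps, a number and at most 1 further letter, without pseudogenes and antisense genes. This gave 78 genes, 49 Mrpl and 29 Mrps, of 46333 genes in the female table and 54532 in the male table, and they lie on 17 chromosomes. RNA was sequenced from CD11b+ microglia, which were isolated from the cerebrum of each mouse with immunomagnetic beads. There were 39 libraries, 19 from females at 10 months of age and 20 from males at 8 months of age. The groups were C57Bl6 wild-type (WT) or 5XFAD mice kept from 4 months of age in normoxia (NX) or chronic intermittent hypoxia (CIH), with 5 libraries in each group and 4 in female WT NX. By the study's methods, the WT dams were C57BL/6J and the 5XFAD sires came from a B6SJL line. 5XFAD mice carry mutant human transgenes expressed in neurons rather than in microglia. CIH alternated between 6.5% and 21% O2 in 90-second intervals for 8 hours of the sleep phase per day according to the labels, and NX mice stayed at 21% O2. The study's methods state another low O2 level and another number of hours. CD11b is also carried by other myeloid cells, so the beads do not separate microglia from border macrophages, monocytes or neutrophils.

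The mitochondrial ribosome translates the few messages encoded by mitochondrial DNA, which specify core subunits of the respiratory chain and ATP synthase. All of its proteins are encoded in the nucleus, made in the cytosol and imported, and they assemble on 2 ribosomal RNAs transcribed in the organelle. Mrpl genes encode proteins of the large subunit, where peptide bonds form, and Mrps genes encode proteins of the small subunit, where the message is decoded, although a few symbols do not match the subunit in which the protein was later found. Nuclear genes for mitochondrial proteins are known to be driven in part by the factors NRF1, GABP (an ETS factor) and YY1, and microglia that meet amyloid plaques shift to the disease-associated microglia (DAM) state.

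RefSeq promoters (GRCm38.p6, 250 bases before to 50 after the start) were at hand for 69 of the 78 genes. The letters GCGC, any base and TGCGC, an NRF1 site, occurred on either strand in 13 of the 69 (18.8%) and in 5.19% of the promoters of 27025 genes. The ETS letters CCGGAAG occurred in 26 (37.7%, against 9.93% of all promoters) and the YY1 letters AAGATGGCG in 8 (11.6%, against 1.64%). The other letters searched were CCAAT (39.1% of members, 41.1% of all), GGGGCGGGG (18.8%, 12.9%), CACGTG (7.25%, 8.09%), ACGTG (23.2%, 21.8%), TGCGCA (30.4%, 8.79%) and the NRF1 letters with A as the free base (4.35%, 1.07%). TGCGCA and both NRF1 patterns overlap one another, as do CACGTG and ACGTG. Members had a median GC content of 58% in this window and all genes 52.75%. A match is a description of the letters and not a measured site. The 150 bases before the start are shown for 3 members with an NRF1 match that were among the most changed in males (Mrpl12, Mrpl30, Mrps21), for the most highly expressed member (Mrpl52) and for a member that fell in females (Mrps22), with the NRF1 or ETS letters in capitals on either strand.
Mrpl12, chr11:120484487-120484636, plus strand: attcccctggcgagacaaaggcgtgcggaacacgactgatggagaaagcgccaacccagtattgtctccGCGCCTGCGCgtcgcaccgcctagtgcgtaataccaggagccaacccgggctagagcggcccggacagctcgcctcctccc
Mrpl30, chr1:37890327-37890476, plus strand: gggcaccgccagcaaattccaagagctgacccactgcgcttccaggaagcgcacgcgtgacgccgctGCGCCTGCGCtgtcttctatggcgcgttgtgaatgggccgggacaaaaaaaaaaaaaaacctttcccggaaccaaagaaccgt
Mrps21, chr3:95871515-95871664, minus strand: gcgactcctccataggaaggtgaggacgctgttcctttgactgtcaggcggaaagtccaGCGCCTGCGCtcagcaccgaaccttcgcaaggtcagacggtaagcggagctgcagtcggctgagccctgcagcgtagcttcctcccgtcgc
Mrpl52, chr14:54426759-54426908, plus strand: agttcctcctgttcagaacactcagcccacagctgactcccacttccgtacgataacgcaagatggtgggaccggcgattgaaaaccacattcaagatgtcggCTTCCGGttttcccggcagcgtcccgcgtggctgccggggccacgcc
Mrps22, chr9:98601680-98601829, minus strand: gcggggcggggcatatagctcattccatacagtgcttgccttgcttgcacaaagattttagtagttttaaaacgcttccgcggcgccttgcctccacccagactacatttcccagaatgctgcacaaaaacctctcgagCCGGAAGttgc
The NRF1 letters began 81, 83 and 91 bases before the start in Mrpl12, Mrpl30 and Mrps21. The ETS letters began 47 bases before the start in Mrpl52, on the reverse strand, and 11 bases before it in Mrps22. The patterns and the 5 promoters were chosen after the expression values were seen.

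Female libraries held between 14731683 and 25906121 counts and male libraries between 13457293 and 23095627, and CPM below are counts scaled to the TMM-normalized library size. The microglial markers Cx3cr1, P2ry12, Tmem119, Csf1r and Itgam were present in every library, with Csf1r at 6851 CPM or more and Itgam, which encodes CD11b, at 307 CPM or more. Each library was taken as 1 animal, as the labels number them, and nothing states whether animals were pooled. F 5XFAD NX 4 lay among the WT libraries on the first component of a principal component analysis and beyond every other female library on the next, and it had a DAM marker sum of 2455 CPM, against 21997 to 45073 CPM in the other female 5XFAD NX libraries. M 5XFAD NX 4 and 5 stood apart from the other 3 of their group. Calls and medians that use these 3 libraries are given with and without them. F WT NX 1 had the highest DAM marker sum of the WT libraries, 8190 CPM against 2828 to 4109 CPM in the other 3 female WT NX libraries, and without it 0 members were called in each comparison that uses it, as with it, while 6.52% of all genes were called in the NX genotype comparison and 0 in the other 2.

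In FPKM, which corrects for gene length, the members had a median level of 13.4 in females and 8.89 in males. Mrpl52, a large subunit protein found in mitochondria but not in bacteria, had the highest mean FPKM in both tables, at 95.3 ± 19.4 (SD, n = 19) in females and 58.9 ± 28.1 (n = 20) in males. Next were the small subunit genes Mrps15 (44.0 ± 4.74) and Mrps21 (37.8 ± 6.30) in females, and Mrps21 (49.1 ± 22.4) and the large subunit gene Mrpl43 (38.5 ± 12.1) in males. The lowest FPKM in females were those of Mrps25 (2.07 ± 0.267), Mrpl19 (2.46 ± 0.252) and Mrpl35 (2.64 ± 0.331). In males Mrps25 (2.07 ± 0.585) and Mrps35 (2.14 ± 0.473) were lowest above 0, and Mrpl53 was listed at 0 in all 20 libraries, although it had 24.7 ± 3.79 FPKM in females. Mrpl53 overlaps Gm42688 on the same strand in the male annotation, and it was not tested in males. The order of the levels was only loosely shared by the tables (Spearman's rho of mean FPKM 0.429 over 77 genes, without a test), which used different gene lengths. Of the 78 members, 41 overlap another gene in the male annotation, 26 of them one above 1 CPM, and whether reads were counted by strand is not given in the sources used here.

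The 78 genes together took 0.134 to 0.152% of all counts in female WT NX, 0.142 to 0.152% in WT CIH, 0.133 to 0.140% in 5XFAD NX and 0.133 to 0.157% in 5XFAD CIH. The female ranges overlapped in each comparison between 2 genotypes or 2 treatments. In males the share was 0.182 to 0.231% in WT NX, 0.161 to 0.176% in WT CIH and 0.165 to 0.234% in 5XFAD CIH. Male 5XFAD NX held 3 libraries between 0.207 and 0.215% and M 5XFAD NX 4 and 5 at 0.140 and 0.145%. Male WT CIH lay below male WT NX without overlap, and it overlapped with male 5XFAD CIH. TMM normalization scales each library by a further factor, and on that scale the summed CPM of the members was 1426 to 1505 in male WT CIH, 1670 to 2225 in WT NX and 1730 to 3031 in 5XFAD CIH, where WT CIH lay below both without overlap. Among the 77 members tested in males, the mean CPM was lowest in WT CIH for 64 and highest in 5XFAD CIH for 60. In females WT CIH was lowest for 35 of 78 and 5XFAD CIH highest for 45. In these bulk samples, fewer cells with a high level and less RNA per cell cannot be told apart.

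**Figure D1:**
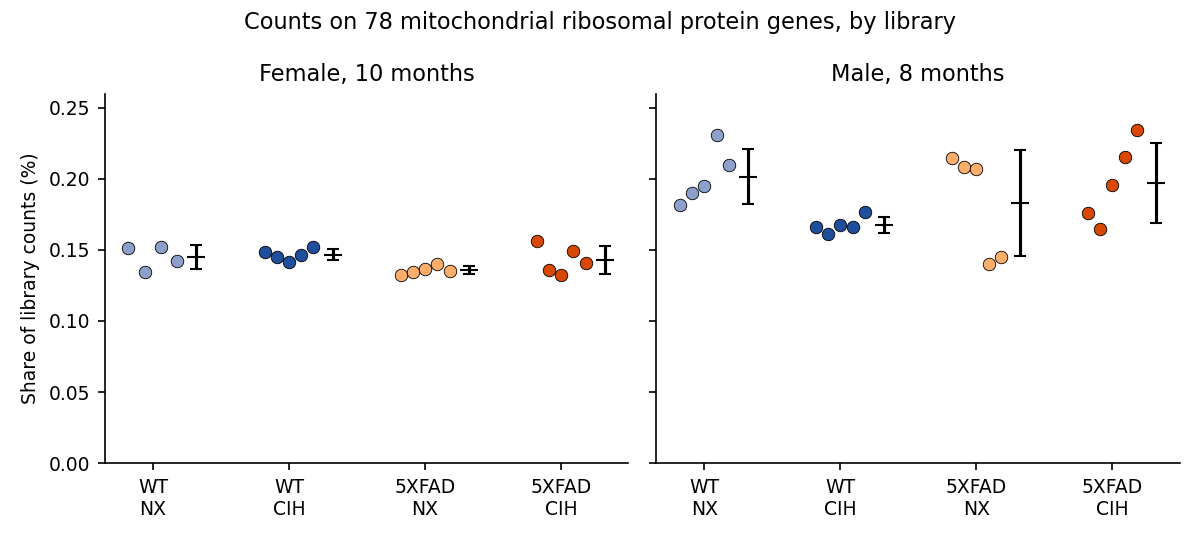
Share of all counts (percent, y axis) taken by the 78 mitochondrial ribosomal protein genes in each of the 39 libraries, by group, with females on the left and males on the right; each point is 1 library, with the group mean ± SD beside it. Male WT CIH libraries sit between 0.161 and 0.176%, below every male WT NX library (0.182 to 0.231%) and within reach of the lowest male 5XFAD CIH library (0.165%), and M 5XFAD NX 4 and 5 sit at 0.140 and 0.145%.

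The effect of CIH on WT microglia was asked first. In males, 38 of 77 members were lower in WT CIH than in WT NX and 0 were higher at a false discovery rate (FDR) below 0.05 (edgeR's quasi-likelihood test on TMM-normalized counts, Benjamini-Hochberg adjusted over all 14983 genes tested). That is 49.4% of the members, and 15.0% of all genes tested were lower and 13.6% higher by the same rule. The median log2 fold change (log2FC) was −0.45 over the members and −0.01 over all genes, and 72 of 77 members had a negative value. The 5 libraries of each group did not overlap for 25 members that were lower, 9.02% of all genes being lower in this way. No member passed the additional log2FC limit of 1 that defined differentially expressed genes (DEGs), which 0.881% of all genes did downwards.

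Mrpl52 had the largest fall. Its CPM in the 5 male WT NX libraries was 58.7, 61.9, 46.8, 71.1 and 62.3, and in WT CIH it was 35.8, 28.5, 34.5, 30.3 and 29.0. Every WT CIH library lay below every WT NX library, and log2FC was −0.93 ± 0.11 (SE, adjusted p = 0.000266, edgeR), a level 1.90-fold lower. Mrps21, a small subunit protein with a bacterial counterpart, was at 27.0, 29.9, 41.9, 44.9 and 32.2 CPM in WT NX and at 23.7, 18.5, 18.7, 17.7 and 18.998 CPM in WT CIH. Again the groups did not overlap (log2FC −0.85 ± 0.15, adjusted p = 0.000824, edgeR, 1.81-fold lower), and 4 of the 5 WT CIH libraries lay close together below 20 CPM. Mrpl12, which sits on the flexible stalk of the large subunit that recruits translation factors, ranged from 13.1 to 19.7 CPM in WT NX and from 8.65 to 10.7 CPM in WT CIH, without overlap (−0.83 ± 0.14). Among genes with neighbouring roles, Mrpl11 of the stalk fell by 0.47 ± 0.11 on the log2 scale, and Mrpl10, which anchors the stalk, had −0.24 ± 0.10 and was not called (adjusted p = 0.0924, edgeR).

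Of the 7 members of the central protuberance, the large subunit's contact with the small subunit and the incoming tRNA (Mrpl18, Mrpl27, Mrpl38, Mrpl40, Mrpl46, Mrpl48 and Mrpl58), all 7 were lower in male WT CIH, with log2FC between −0.77 and −0.37. Mrpl58, a peptidyl-tRNA hydrolase that frees stalled peptides, fell by 0.67 ± 0.15 on the log2 scale. At the exit tunnel, 4 of 6 members were lower, among them Mrpl23 (−0.77 ± 0.13) and Mrpl45 (−0.45 ± 0.14), which tethers the ribosome to the inner membrane. Large subunit proteins with a bacterial counterpart were lower in 16 of 30, and those particular to mitochondria in 14 of 20. Small subunit proteins were lower in 3 of 16 and 4 of 10. No difference between these classes was tested, and log2FC moved with gene length here (Spearman's rho 0.49). Mrps12, a decoding protein, had −0.45 ± 0.17 and was not called (adjusted p = 0.0553, edgeR). Mrps16 (−0.64 ± 0.16) and Mrps34 (−0.63 ± 0.15), both mutated in human mitochondrial disease, were lower, and Mrps2 (−0.10 ± 0.12) and Mrps22 (−0.06 ± 0.20), of the same disease group, were not called. Mrps18a (−0.42 ± 0.10), a large subunit protein despite its symbol, was lower, and its small subunit paralogs Mrps18b (−0.06 ± 0.20) and Mrps18c (−0.64 ± 0.25) were not called. Mrps30, likewise a large subunit protein, fell by 0.35 ± 0.11, and Mrps36, which is now known as a part of the 2-oxoglutarate dehydrogenase complex, fell by 0.68 ± 0.25. The calls of Mrps36, Mrps30 and Mrpl45 in this comparison were lost in 14, 12 and 7 of 20 alternative settings (adjusted p up to 0.372, 0.148 and 0.163).

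With all 4 male groups in one fit the median stayed at −0.45, but 0 members were called, as were 0 of all 15813 genes in that fit, and 36 members (46.8%) had an unadjusted p below 0.05, against 28.4% of all genes. With the trend on gene length removed, 20 members were lower and 1 was higher, with a median of −0.23, and 1454 of all 14983 genes were lower and 1324 higher. Neutrophil markers (6 of 6 in the table) summed to 187 to 1048 CPM in male WT NX and 91.7 to 264 CPM in WT CIH, and DAM markers (10 of 10) to 4350 to 6656 and 3362 to 3639 CPM. The 5 microglial markers summed to 22833 to 25771 CPM in WT NX and 19375 to 22658 CPM in WT CIH, without overlap. Their part in the result was not tested.

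In WT females no member was called between NX and CIH, where 0.0% of all genes were called (edgeR). The members' median log2FC was −0.01 and 2 had an unadjusted p below 0.05 (3.87% of all genes did). The libraries overlapped for 77 members and were apart for 1, Mrpl38, which was higher in WT CIH (0.542% of all genes were apart and higher). Mrpl52, the member with the largest male fall, had values of 34.7, 30.1, 36.2 and 30.8 CPM in WT NX and 34.2, 27.6, 27.4, 32.6 and 32.5 CPM in WT CIH.

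The largest difference was between the genotypes in CIH. In males, 55 of 77 members (71.4%) had a higher level in 5XFAD CIH than under WT CIH and 0 a lower one, where 25.3% of all 14793 genes tested were higher and 23.7% lower. The median log2FC was 0.69 over the members and −0.06 over all genes, and 72 of 77 had a positive value. DEGs with log2FC above 1 numbered 12 (15.6% of the members), not far from the share of 11.8% of all genes. For 40 members no 5XFAD CIH library overlapped a WT CIH library, which held for 19.4% of all genes. In females 21 of 78 (26.9%) were higher and 4 (5.13%) were lower in 5XFAD CIH, close to the 26.2% of all 14911 genes that were higher and far from the 25.7% that were lower. The female median was 0.12 (all genes −0.02), 58 of 78 values were positive and 0 were DEGs (8.83% of all genes were DEGs upwards and 4.12% downwards). Libraries did not overlap for 14 female members that were higher (18.8% of all genes) and 2 that were lower (19.7%). Scaled by library size alone, 33 members were higher and 10 lower in males, and 14 higher and 19 lower in females, where the median turned to −0.0704. By the same scaling 2205 of all genes were higher and 6800 lower in males, and 2610 higher and 6288 lower in females. Within a sex, this comparison shares its WT CIH libraries with WT NX vs WT CIH.

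**Figure D2:**
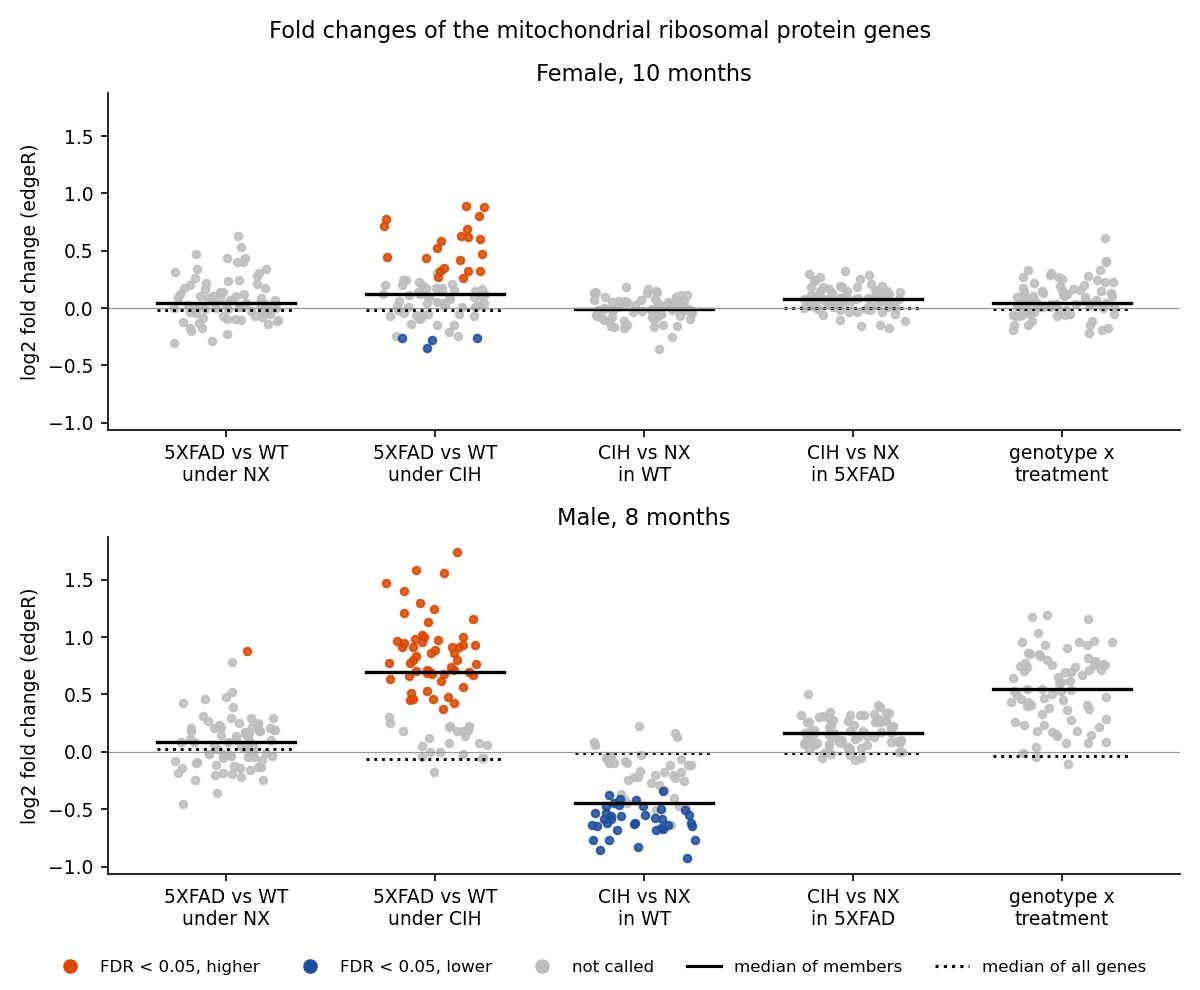
Log2 fold changes (y axis, edgeR) of each mitochondrial ribosomal protein gene for 5XFAD over WT under NX and under CIH, CIH over NX in WT and in 5XFAD, and the genotype by treatment interaction, females above and males below; each point is 1 gene, coloured by its call at an FDR below 0.05, and solid and dotted lines are the medians of the members and of all genes. The male points lie mostly below 0 for CIH over NX in WT (median −0.45) and mostly above 0 for 5XFAD over WT under CIH (median 0.69), and the female medians with TMM lie between −0.01 and 0.12.

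Mrpl52 and Mrpl30 had the largest rises among male members whose libraries did not overlap. Mrpl52 was at 76.8, 65.7, 84.1, 100 and 145 CPM in male 5XFAD CIH against 28.5 to 35.8 CPM in WT CIH, 3.00-fold higher (log2FC 1.59 ± 0.18, adjusted p = 5.45e-06, edgeR). The lowest 5XFAD CIH library was well above the highest WT CIH library, and the highest, 5XFAD CIH 5, stood above the others of its group. In females the same gene was at 66.3, 43.1, 41.3, 46.8 and 53.8 CPM in 5XFAD CIH against 27.4 to 34.2 CPM in WT CIH (log2FC 0.72 ± 0.12, adjusted p = 0.000286, edgeR). Mrpl30, a large subunit protein with a bacterial counterpart, was at 19.99, 21.2, 21.9, 20.9 and 18.9 CPM in male WT CIH and at 41.6, 50.1, 56.7, 67.2 and 86.0 CPM in 5XFAD CIH, 2.95-fold higher (1.56 ± 0.16, adjusted p = 2.47e-06, edgeR). Its female values were 15.2, 16.1, 17.0, 16.5 and 16.9 CPM in WT CIH and 32.7, 24.9, 20.4, 28.6 and 31.8 CPM in 5XFAD CIH, again without overlap (0.77 ± 0.12). The WT CIH libraries of Mrpl30 were close together in both sexes, and the spread was in 5XFAD CIH.

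In females the largest rises were those of Mrpl54 and Mrpl33, both small proteins of the large subunit. Mrpl54 was at 9.47, 8.28, 8.97, 7.57 and 9.46 CPM in WT CIH and at 20.4, 14.7, 12.7, 18.1 and 14.2 CPM in 5XFAD CIH (log2FC 0.89 ± 0.13, adjusted p = 9.7e-05, edgeR, 1.85-fold). Mrpl33 was at 13.0003, 13.2, 11.7, 12.2 and 13.2 CPM in WT CIH and at 21.3, 19.9, 22.6, 29.0 and 22.4 CPM in 5XFAD CIH (0.88 ± 0.10, adjusted p = 9.27e-06, edgeR, 1.84-fold). Neither gene overlapped between the female groups. In males Mrpl54 had the largest log2FC of all members (1.74 ± 0.32), but its libraries overlapped, with 12.7, 8.45, 6.11, 6.48 and 7.91 CPM in WT CIH and 17.2, 11.2, 31.4, 31.4 and 46.9 CPM in 5XFAD CIH. Male Mrpl33 rose by 0.76 ± 0.17 without overlap. Mrpl33 overlaps Rbks in the male annotation.

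The members that fell in females were Mrpl50, Mrpl22, Mrps11 and Mrps22, with log2FC between −0.34 and −0.26. Mrps11, a small subunit protein with a bacterial counterpart, was at 13.6, 12.7, 12.3, 12.6 and 13.03 CPM in WT CIH and at 11.7, 9.11, 9.80, 10.5 and 11.9 CPM in 5XFAD CIH (−0.26 ± 0.09, adjusted p = 0.0319, edgeR). Mrps22, a small subunit protein particular to mitochondria, was at 8.04, 7.86, 8.25, 8.09 and 7.60 CPM in WT CIH and at 7.21, 6.52, 6.27, 5.88 and 7.04 CPM in 5XFAD CIH (−0.26 ± 0.10, adjusted p = 0.0479, edgeR). Their libraries did not overlap, but the gaps were small, and the call of Mrps22 was lost in 13 of 20 alternative settings (adjusted p up to 0.271) and that of Mrps11 in 7 of 20 (up to 0.131). In males Mrps11 (0.30 ± 0.19) and Mrps22 (−0.05 ± 0.21) were not called, and Mrpl22, at the exit tunnel, was called in the other direction (0.46 ± 0.18). In the male annotation Mrps11 overlaps Mrpl46 at one end, and Mrps22 overlaps the antisense gene Gm37637. Without strand, reads from a shared stretch cannot be told apart. The female table used different gene lengths, and overlaps were not examined there.

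**Figure D3:**
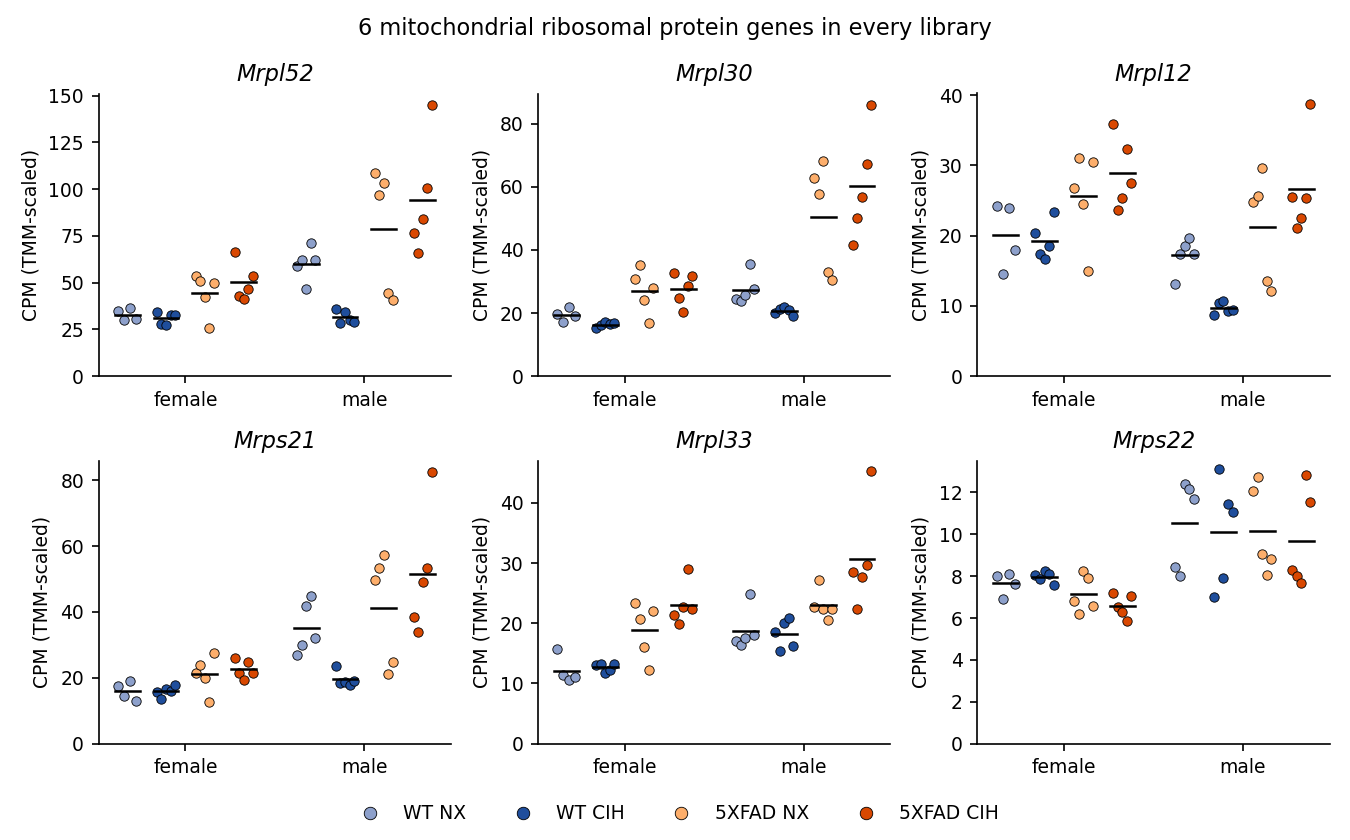
CPM (TMM normalized, y axis) of Mrpl52, Mrpl30, Mrpl12, Mrps21, Mrpl33 and Mrps22 in every library, by sex and group; each point is 1 library and the bar is the group mean. For Mrpl52 the 5 male WT CIH libraries sit at 28.5 to 35.8 CPM, below every library of the other male groups, and Mrps22 overlaps between the male groups.

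By role, 2 of 3 stalk proteins were higher in male 5XFAD CIH. Mrpl12 was at 8.65, 10.4, 10.7, 9.22 and 9.47 CPM in WT CIH and at 25.5, 21.1, 22.5, 25.4 and 38.7 CPM in 5XFAD CIH, without overlap (log2FC 1.47 ± 0.16, adjusted p = 3.97e-06, edgeR). Mrpl11 rose by 0.80 ± 0.17, whereas Mrpl10 was at 25.6 to 32.1 CPM in WT CIH and 23.0 to 33.4 CPM in 5XFAD CIH, with a log2FC of 0.00 ± 0.12. The 3 proteins sit beside one another on the ribosome, and the difference among them was not tested. All 7 proteins of the central protuberance were higher in males (median 0.83), and 2 of 7 were in females. At the exit tunnel 4 of 6 were higher in males, with Mrpl23 at 1.13 ± 0.17 and Mrpl45 at 0.69 ± 0.13, and both had a log2FC of 0.32 ± 0.11 in females, where they were also called. The female calls were lost in 9 of 20 settings for Mrpl23 (adjusted p up to 0.878) and in 8 of 20 for Mrpl45 (up to 0.277). Large subunit proteins with a bacterial counterpart were higher in 23 of 30 in males (median 0.71) and those particular to mitochondria in 14 of 20 (0.73). Small subunit proteins were higher in 9 of 16 (0.57) and 8 of 10 (0.55), respectively. Each class ran from near 0 to a log2FC of 0.97 or more, and no difference between them was tested.

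In males, Mrps12 of the decoding site rose by 0.86 ± 0.17 (female value 0.23 ± 0.11, not called). Of the genes mutated in human mitochondrial disease, Mrps16 (0.96 ± 0.20) and Mrps34 (0.70 ± 0.19) were higher in males, whereas Mrpl3 (−0.05 ± 0.12), Mrpl44 (0.22 ± 0.14), Mrps2 (0.07 ± 0.12) and Mrps22 were not called, and none of these 6 was higher in females. Mrps18a, Mrps18b and Mrps18c, paralogs that occupy separate places on the ribosome, had male log2FC of 0.77 ± 0.14, 0.46 ± 0.16 and 0.97 ± 0.22, all called, although Mrps18b lost its call in 10 of 20 settings. Only Mrps18a of the 3 was called in females (0.47 ± 0.11). Mrps30 was not called in males (0.18 ± 0.14). Mrps36 was higher in both sexes, at 1.25 ± 0.24 in males and 0.69 ± 0.12 in females. Mrpl58 (0.91 ± 0.18), Mrpl41 (0.89 ± 0.15), Mrps27 (0.53 ± 0.13), an RNA-binding PPR protein, and Mrps6 (0.74 ± 0.19) were higher in males, and none of these 4 was called in females.

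All 21 members that were higher in female 5XFAD CIH were also higher in male 5XFAD CIH, which is 100% of the female and 38.2% of the male calls. Of all 77 members tested in males, 55 (71.4%) were higher, so a large overlap was likely beforehand. The overlap over all genes was not worked out. The sexes share no library. The 21 were Mrpl12, Mrpl13, Mrpl19, Mrpl20, Mrpl23, Mrpl27, Mrpl30, Mrpl33, Mrpl36, Mrpl42, Mrpl45, Mrpl48, Mrpl51, Mrpl52, Mrpl54, Mrps18a, Mrps21, Mrps23, Mrps24, Mrps28 and Mrps36. Across 77 members the log2FC of the sexes had a Pearson's r of 0.787 and a Spearman's rho of 0.812, given as a description because genes are not independent and a gene's base composition is common to both tables. Age, months of exposure (6 in females and 4 in males) and count table differed with sex, so the sizes were not compared by a test.

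**Figure D4:**
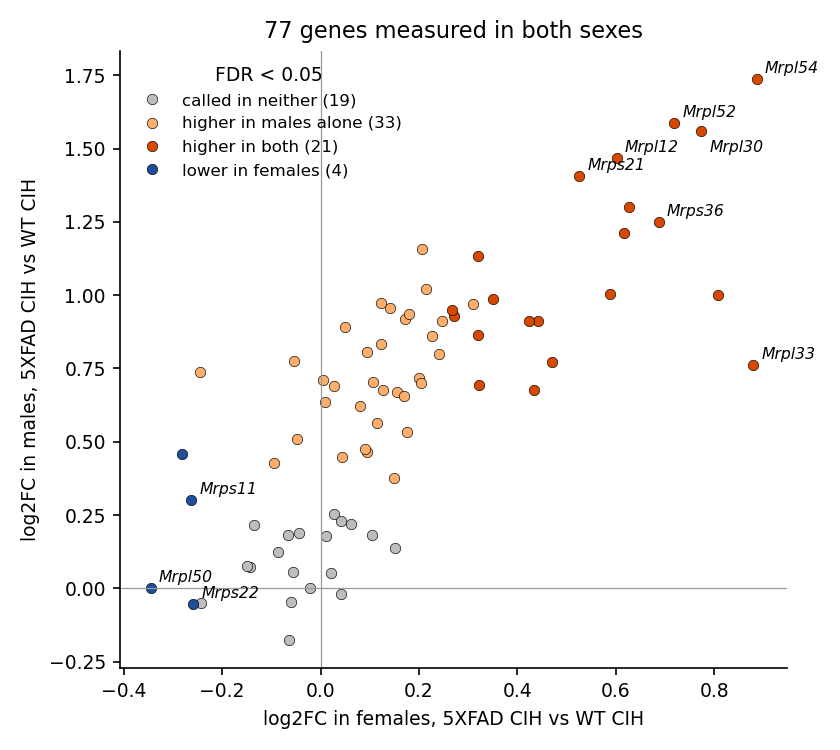
Log2 fold change from WT CIH to 5XFAD CIH in females (x axis) against males (y axis), on a log2 scale; each point is 1 of 77 mitochondrial ribosomal protein genes. The points rise together (Spearman's rho 0.812), and the 21 genes called higher in females all lie among those called higher in males.

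In NX, the genotype difference depended on the libraries that stood apart. With all libraries, 0 of 78 members were called in females (13.9% of all genes in either direction, edgeR), 5 had an unadjusted p below 0.05 (34.1% of all genes did), and the median log2FC was 0.04 (all genes −0.02). In males 1 of 77 was called, Mrpl30 (0.88 ± 0.23, adjusted p = 0.0175, edgeR), where 10.4% of all genes were higher, and the median was 0.09. This call was lost when library numbers were fitted as a replicate block, where 8.83% of all genes were called. With library size scaling 1 member was higher and 6 were lower, as were 1076 and 2179 of all 14834 genes. Mrpl30 was at 24.4, 24.0, 25.7, 35.6 and 27.5 CPM in male WT NX and at 62.9, 57.9, 68.0, 32.9 and 30.5 CPM in 5XFAD NX, so that M 5XFAD NX 4 and 5 lay within the WT range and the other 3 above it. Mrpl52, at 109, 97.0, 103, 44.3 and 40.5 CPM in 5XFAD NX, had the same libraries below its WT NX range of 46.8 to 71.1 CPM. DAM markers summed to 26308 and 24662 CPM in these 2 libraries, the lowest of the group, to 37503 to 51939 CPM in the other 3 and to 4350 to 6656 CPM in male WT NX.

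Without F 5XFAD NX 4, 14 female members were higher in 5XFAD NX (17.9%, against 21.8% of all genes, median 0.09), and without M 5XFAD NX 4 and 5, an exclusion chosen after seeing the data, 26 male members were higher (33.8%, against 17.9% of all genes, median 0.37). Of the 14, 13 were also among the 21 higher in female CIH (92.9% of the former, 61.9% of the latter), and the 26 were all among the 55 of male CIH (100% and 47.3%). The NX and CIH genotype comparisons share no library. In CIH 26.9% of all female and 71.4% of all male members were higher, and the overlap over all genes was not worked out. With these libraries left out, the NX log2FC in males was 1.197 for Mrpl30, 1.14 for Mrpl54 and 0.78 for Mrpl52. In females it was 0.74 for Mrpl33, 0.72 for Mrpl54 and 0.60 for Mrpl30.

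In 5XFAD microglia no member was called between NX and CIH in either sex, where 0.0% of all genes were called in each (edgeR). In females 63 of 78 values were positive with a median of 0.08, and 1 had an unadjusted p below 0.05 (3.22% of all genes did). Without F 5XFAD NX 4 the female median was 0.03 and 50 values were positive. In males 70 of 77 were positive with a median of 0.16 and 2 had an unadjusted p below 0.05 (3.3% of all genes did). Without M 5XFAD NX 4 and 5 the male median was −0.09 and 21 of 77 values were positive. Then 0 members had an unadjusted p below 0.05 (9.11% of all genes did).

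Whether the genotype difference itself changed with CIH was tested as the interaction of genotype and treatment. No member was called in either sex (0.0% of all genes in each, edgeR). In females 1 member, Mrps28, had an unadjusted p below 0.05 (3.78% of all genes did), and the median was 0.05, or 0.02 without F 5XFAD NX 4. In males the median was 0.55 (all genes −0.04), 74 of 77 values were positive, and 31 members (40.3%) had an unadjusted p below 0.05, against 24.4% of all genes. The smallest unadjusted p values were those of Mrpl12 (1.16 ± 0.30, adjusted p = 0.117, edgeR), Mrpl52 (1.19 ± 0.34) and Mrps21 (1.17 ± 0.36). The likelihood ratio test called 2 members and DESeq2 8, and of all 15813 genes they called 248 and 945. Without M 5XFAD NX 4 and 5 the median was 0.28 and 11 members (14.3%) had an unadjusted p below 0.05, against 10.4% of all genes, so the male genotype difference was not shown to differ between CIH and NX. The male fit of 4 groups also called 0 of 15813 genes between WT NX and WT CIH. The fit of those 2 groups alone called 4279 of 14983. The lack of calls in the male interaction therefore cannot show that the genotype difference stayed the same.

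Other genes of mitochondrial translation were compared between the same groups, where 25.3% of all genes were higher and 23.7% lower in males and 26.2% and 25.7% in females. Of 5 further mitochondrial ribosomal proteins with other symbols, Aurkaip1 (log2FC 1.05 ± 0.17), Chchd1 (0.92 ± 0.15) and Gadd45gip1 (0.87 ± 0.18) had higher levels in male 5XFAD CIH against WT CIH, and Ptcd3 was lower (−0.58 ± 0.15). In females Aurkaip1 (0.44 ± 0.11) and Gadd45gip1 (0.25 ± 0.10) were higher. Of 24 assembly and rRNA modification factors, 3 were higher and 2 lower in males, with Mpv17l2, which helps to assemble the large subunit, at 1.12 ± 0.15 and Mterf3 at −0.55 ± 0.09, and 1 was higher and 5 lower in females. Translation factors were higher in 3 and lower in 3 of 13 in males and higher in 5 and lower in 3 of 14 in females. Among them Slirp, which stabilizes mitochondrial messages, had 0.61 ± 0.14 in females. Slirp is also 1 of the 3 counted as higher in males, but it was near the filter on low counts there, at 0.211 to 1.09 CPM in WT CIH and 0.826 to 2.26 CPM in 5XFAD CIH, and passed it through the group where it was high. Gfm2, which splits the ribosome for reuse, had −1.01 ± 0.13 in males and −0.58 ± 0.11 in females. Of 20 mitochondrial tRNA synthetases and related enzymes, 2 were higher and 4 lower in each sex.

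The genes that copy and transcribe mitochondrial DNA were higher in 0 and lower in 2 of 8 in males, with the polymerase Polg at −0.46 ± 0.17, and lower in 3 of 8 in females. Of 7 regulators of mitochondrial biogenesis, 0 were higher in males, and Gabpa (−0.42 ± 0.13), Nrf1 (−0.29 ± 0.10) and Yy1 (−0.24 ± 0.08) were lower, while 2 were higher and 3 lower in females, Nrf1 (−0.33 ± 0.07) and Yy1 (−0.21 ± 0.05) among the latter. The messages that the mitochondrial ribosome translates were higher in 12 of 12 genes tested in both sexes, with medians of 1.37 in males and 1.01 in females. In male WT CIH against WT NX, 9 of these 12 were lower (median −0.63). The list holds 13 genes, and mt-Atp8 was under the filter on low counts and was not tested. Beside the members' median of 0.69 in males, nuclear genes of oxidative phosphorylation had 1.27 (72 of 75 higher) and cytosolic ribosomal protein genes 2.03 (74 of 76 higher). The female medians were 0.63 (67 of 77) and 1.301 (75 of 75), beside 0.12 for the members. The mitochondrial ribosomal protein genes therefore had the smallest median of the 4 lists in both sexes, and no difference between lists was tested.

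Of the 46 members with a promoter entry that were higher in male 5XFAD CIH, 23 held the ETS letters (50%), and 2 of the 22 that were not called did (9.09%). For the NRF1 letters the counts were 8 of 46 and 5 of 22, and for the YY1 letters 6 of 46 and 2 of 22. All 9 patterns were split in this way, and the others gave 15 of 46 and 11 of 22 for CCAAT, 0 and 3 for the NRF1 letters with A as the free base, 15 and 6 for TGCGCA, 9 and 4 for GGGGCGGGG, 4 and 1 for CACGTG and 12 and 4 for ACGTG. The median GC content was 59.8% in the called and 56.3% in the other members. The split was chosen after the values were seen and was not tested.

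Gene length moved with the male log2FC. The members had a median length of 2213.5 bases in the male table, and all genes tested 3851 bases (1257.5 and 2981 bases in females). Across 77 members, Spearman's rho of length and male log2FC was −0.45 between WT CIH and 5XFAD CIH and 0.49 between WT NX and WT CIH, so that shorter members differed more in both. Over 78 members in females, the same rho was −0.28 and 0.09. Of 38 members at or under the median length, 32 were higher in male 5XFAD CIH (median 0.82), and of 39 longer members 23 were (0.51). With the trend on length over all genes removed, 40 members were higher and 1 lower with a median of 0.38, as were 3696 and 3402 of all 14793 genes. In females this left 17 members higher and 10 lower with a median of 0.04, and 4145 and 3785 of all 14911 genes. The part of length in the result was not tested beyond this.

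**Figure D5:**
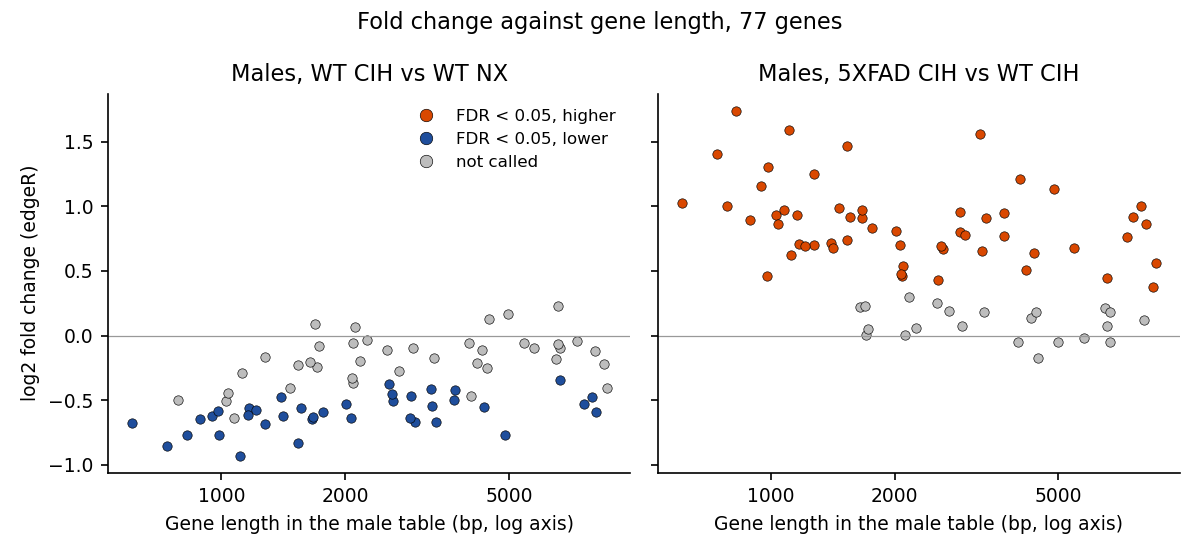
Log2 fold change in males (y axis) against gene length in bases (x axis, log scale) for 77 mitochondrial ribosomal protein genes, with one panel for WT NX vs WT CIH and one for WT CIH vs 5XFAD CIH; each point is 1 gene, coloured by its call. Values rise with length in the former (Spearman's rho 0.49) and fall with it in the latter (−0.45).

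Marker sums of microglia and of other cells were also compared in CIH. The 5 microglial markers summed to 19375 to 22658 CPM in male WT CIH and 15016 to 16692 CPM in 5XFAD CIH, and in females to 21269 to 24210 and 15231 to 16382 CPM, without overlap. Astrocyte markers (6 of 6) summed to 154 to 223 CPM in male WT CIH and 218 to 600 CPM in 5XFAD CIH, and border macrophage markers (6 of 6) to 134 to 299 and 92.6 to 174 CPM. Endothelial markers (6 of 6) summed to 68.1 to 123.1 and 115 to 160 CPM, oligodendrocyte markers (6 of 6) to 194 to 275 and 241 to 447 CPM, and neuron markers (6 of 6) to 5.96 to 11.8 and 2.55 to 14.6 CPM. T cell markers (4 of 4) summed to 0.321 to 0.988 and 3.12 to 5.89 CPM, neutrophil markers to 91.7 to 264 and 48.9 to 185 CPM and erythroid markers (4 of 4) to 43.2 to 107 and 22.4 to 94.4 CPM. In females the astrocyte sums were 159 to 198 and 223 to 638 CPM, the endothelial sums 59.6 to 134 and 169 to 248 CPM and the border macrophage sums 134 to 283 and 64.9 to 123.05 CPM. The female sums of the other 5 lists of other cells overlapped between the groups. DAM markers (10 of 10) summed to 3362 to 3639 CPM in male WT CIH and 32650 to 69929 CPM in 5XFAD CIH, and in females to 2827 to 3718 and 25562 to 39377 CPM. No marker of these lists was at 0 in all libraries of a CIH group. The part of these cells in the result was not tested.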

How the data were processed

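CD11b+ microglia RNA was sequenced by the authors' provider as mRNA libraries. The submitters' processing notes name HISAT2 and GRCm38 (mm10), and the counting tool is not given in the sources used here. The authors deposited raw counts per gene and FPKM values. The deposited FPKM equal count over length and library total in females, and in males up to 1 constant per library. The test was edgeR's quasi-likelihood F test on the counts (edgeR 4.0.16, R 4.3.3, TMM) for each pair of groups within a sex. Genes entered it if their CPM exceeded 1 in 3 or more libraries of the pair, with Benjamini-Hochberg adjustment over all genes tested. A member was called at an FDR below 0.05, and DEGs also had an absolute log2FC above 1. The interaction was fitted over the 4 groups of a sex. FPKM were used for levels between genes and in limma 3.58.1 (pseudocounts 1 and 0.1). Log2FC is that of the second group over the first, values after ± are SE for log2FC and SD for levels, and SE were derived from the test statistic. At the smallest library 1 CPM is 15 reads in females and 13 in males. Members named are the 2 that rose most and the 2 that fell most among called members without overlap in each comparison, the 3 highest and 3 lowest in FPKM per table, and a list by role. Others were named after their values were seen. The members and lists were chosen with earlier results of these data known. Alternatives were DESeq2 1.42.0, the likelihood ratio test, library-size scaling, no count filter, at least 10 counts in every sample, 1 fit of 4 groups, a replicate block, removal of the length trend and leaving out each library. The tests were tried on simulated data, where each missed some of the changed genes and the male interaction test missed the most. One marker gene is not reported here. No 2 libraries of a group were duplicates over 76 pairs (lowest chi-square per degree of freedom 4.59).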

Additional observations from a re-analysis of the deposited data

Results flagged for a closer look

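In 64 groups of 4 or 5 libraries tested (7 members named for their values and the mean log2 CPM of all members, each in 8 groups), 3 values lay far from the others of their group, and chance alone marks about 1 in 20 groups. Mrpl33 was at 15.7 CPM in F WT NX 1, and the other 3 libraries lay between 10.6 and 11.4 CPM. Mrpl33 was at 24.8 CPM in M WT NX 4, against 16.4 to 18.05 CPM in the other 4. Mrps21 was at 23.7 CPM in M WT CIH 1, against 17.7 to 18.998 CPM in the other 4, and it was nonetheless below every WT NX library.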

How the results depend on the processing

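Of 39 called values of 23 named members that were followed, 13 were called in all 20 alternative settings, 18 lost the call in 1 or 2 and 8 in 7 to 14, and none changed direction. Other called values named above, such as that of Mrpl30 in male NX, were not among the 39. Scaling by library size alone moved the median of all genes from −0.06 to −0.43 between WT CIH and 5XFAD CIH in males and from −0.02 to −0.21 in females. The members' median was then 0.31 in males (33 higher, 10 lower) and −0.0704 in females (14 higher, 19 lower), and it lay 0.75 and 0.14 above that of all genes under both scalings. In females limma on log2(FPKM + 1) and log2(FPKM + 0.1) gave −0.0671 and −0.0709. Between WT NX and 5XFAD NX in females the median was −0.11 with library size, −0.11 and −0.12 with limma, and the likelihood ratio test, DESeq2 and both limma fits called 1 member (18.8, 24.2, 12.8 and 13.2% of all genes) and the fit of 4 groups 3 (29.7%). In males the same comparison gave 2 calls with the likelihood ratio test and with DESeq2 (20.8 and 23.03% of all genes), 7 with library size (1 higher, 6 lower), 3 with the length trend removed (22.7%) and 26 without M 5XFAD NX 4 and 5. For male WT NX vs WT CIH the fit of 4 groups called 0, and removal of the length trend called 21 with a median of −0.23. It gave a median of 0.38 for male WT CIH vs 5XFAD CIH. The male interaction had 2 calls with the likelihood ratio test, 8 with DESeq2 and 15 with no filter on low counts (1754 of all 38365 genes). The causes were not tested.

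Leaving out each library in turn gave 0 to 14 calls for the female NX genotype comparison (14 without F 5XFAD NX 4), where 0.301 to 44.02% of all genes were called, and 17 to 31 for the female CIH one (47.002 to 51.7%). It gave 1 to 2 for the male NX genotype comparison (14.1 to 19.04%), 31 to 42 for male WT NX vs WT CIH (21.9 to 31.9%), 49 to 57 for the male CIH genotype comparison (44.3 to 52.1%) and 0 to 7 for the male interaction (0 to 6.05%, both highest without M 5XFAD NX 1). The other 4 comparisons and interactions stayed at 0. In males, medians ranged from 0.56 to 0.80 in the CIH and −0.04 to 0.21 in the NX genotype comparison (below 0 without M 5XFAD NX 1 or 3), −0.48 to −0.35 in WT, 0.04 to 0.28 in 5XFAD and 0.43 to 0.71 for the interaction. In females they ranged from 0.09 to 0.17 in the CIH and 0.01 to 0.09 in the NX genotype comparison, −0.03 to 0.02 in WT, 0.03 to 0.12 in 5XFAD and 0.01 to 0.09 for the interaction.

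The labels number the libraries within groups, but same-numbered libraries did not deviate together in every pair, so the numbers only name samples. With a replicate block 25 female members were higher and 2 lower (26.5 and 25.8% of all genes) and 51 male members were higher (24.1%) in CIH, 36 were lower in male WT CIH (12.9%), and Mrpl30 lost its call in male NX (0 called, 8.83% of all genes).

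The lowest count of a tested member in any library was 57 reads in females and 62 in males, and smaller differences of such members were less detectable than those of higher ones.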
